A study of Mus musculus with 8 samples.

Results

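The genes described here are 33 genes of sterol and fatty acid synthesis, followed through mouse bone marrow plasma cells labelled as wild type, Blimp1 knockout or Xbp1 knockout. They were taken by symbol from a fixed list, and all 33 were found among the 27179 genes of the count table. By role they comprise 5 genes of SREBP control, 18 genes of the sterol steps (with the sterol carrier Stard4), 6 genes of fatty acid synthesis and elongation, and 4 desaturases. No value measured here served as a filter for the list, but it was chosen with earlier results of these data known. RNA was sequenced from 8 libraries of C57BL/6 bone marrow cells that had been sorted for a Blimp1-GFP reporter and for CD138, a surface protein of plasma cells. Batch 1 holds wild-type (WT) replicates 1 and 2 and 2 libraries of the genotype Blimp1-/- (Blimp1KO). Batch 2 holds WT replicates 3 and 4 and 2 libraries of the genotype Xbp1-/- (Xbp1KO). WT of the same batch served as the control for each knockout, and what a batch stands for is not stated in the labels. How and when each gene was deleted, and the age, sex and treatment of the mice, are not given in the sources used here. The series text calls the replicates biological, and the labels do not say which animals or pools each library came from.

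Cholesterol is built from acetyl-CoA through mevalonate, farnesyl diphosphate, squalene and lanosterol, while fatty acids are built from the same precursor by carboxylation, chain assembly, elongation and desaturation. Both routes are switched on by the membrane-bound transcription factors SREBP1 (gene Srebf1) and SREBP2 (Srebf2), which the escort protein Scap carries from the endoplasmic reticulum to the Golgi when sterols are low, and which Insig1 and Insig2 hold back when sterols are high. Plasma cells carry an extensive endoplasmic reticulum for antibody secretion. Blimp1 (gene Prdm1) is a repressor that drives B cells into the plasma cell state, and XBP1 is a transcription factor of the unfolded protein response that is known for its part in the growth of that organelle.

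Libraries held from 44012152 to 145411827 counts, and immunoglobulin genes took 64.8% to 75.7% of them in WT, 55.4% to 58.4% in Blimp1KO and 25.2% to 30.0% in Xbp1KO. Levels are given as CPM, counts per 1000000 on library sizes scaled by TMM, a method that leaves out the genes that differ most between libraries. All 10 plasma cell markers were detected in every library, and their summed level ran from 32542 CPM in an Xbp1KO library to 119435 CPM in a WT library of batch 1. Libraries differed in RNA of other bone marrow cells. The summed level of 10 neutrophil and monocyte markers was 13.1 CPM in WT replicate 3 and 43.9 CPM in Xbp1KO replicate 1, but 594 CPM in WT replicate 4 and 1414 CPM in Xbp1KO replicate 2. In batch 1 it ran from 293 to 523 CPM, with WT and Blimp1KO libraries overlapping. For the pathway genes called in Xbp1KO, values without WT replicate 4 and Xbp1KO replicate 2 are therefore given as well. Marker genes are named from the fit of all libraries only. The fit without those libraries is also given for other pathway genes whose log2 fold change in Xbp1KO is stated at an unadjusted p below 0.05. That fit leaves 1 library in each group of batch 2, which is assumed to vary like the other groups, and none of the 33 members was called in it for Xbp1KO (4 had an unadjusted p below 0.05). In such bulk libraries, fewer cells of a type and less RNA per cell cannot be told apart. The whole-gene counts of Prdm1 and Xbp1 do not check the genotype labels, because RNA from a gene that has lost part of its sequence can still be counted.

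In WT plasma cells the lipid genes covered a wide range of levels per length of transcript, expressed as RPKM over the 4 WT libraries. Scd2, a stearoyl-CoA desaturase that makes monounsaturated fatty acids, was highest at a mean of 28.6 RPKM, with a lowest library of 22.7 and a highest of 33.5 RPKM. This placed it at percentile 91.3 of the 15073 genes tested. Srebf2 at 22.5 RPKM and Ebp, a sterol isomerase, at 22.3 RPKM came next, and their libraries overlapped each other and those of Scd2. Acly, which makes cytosolic acetyl-CoA from citrate, had a mean of 18.6 RPKM, and Elovl5, an elongase of polyunsaturated fatty acids, one of 18.4 RPKM. At the low end stood Acaca (acetyl-CoA carboxylase 1) at 0.697 RPKM, Idi1 (isopentenyl diphosphate isomerase) at 0.662 RPKM and Elovl6, which elongates palmitate to stearate, at 0.267 RPKM. Elovl6 lay at percentile 20.2 of all genes tested, and its highest WT library (0.307 RPKM) was below the lowest WT library of each other member. By role, the median of the members' WT means was 13.0 RPKM for SREBP control, 8.67 RPKM for fatty acid synthesis, 7.57 RPKM for the desaturases and 3.64 RPKM for the sterol steps, with roles overlapping widely.

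**Figure D1:**
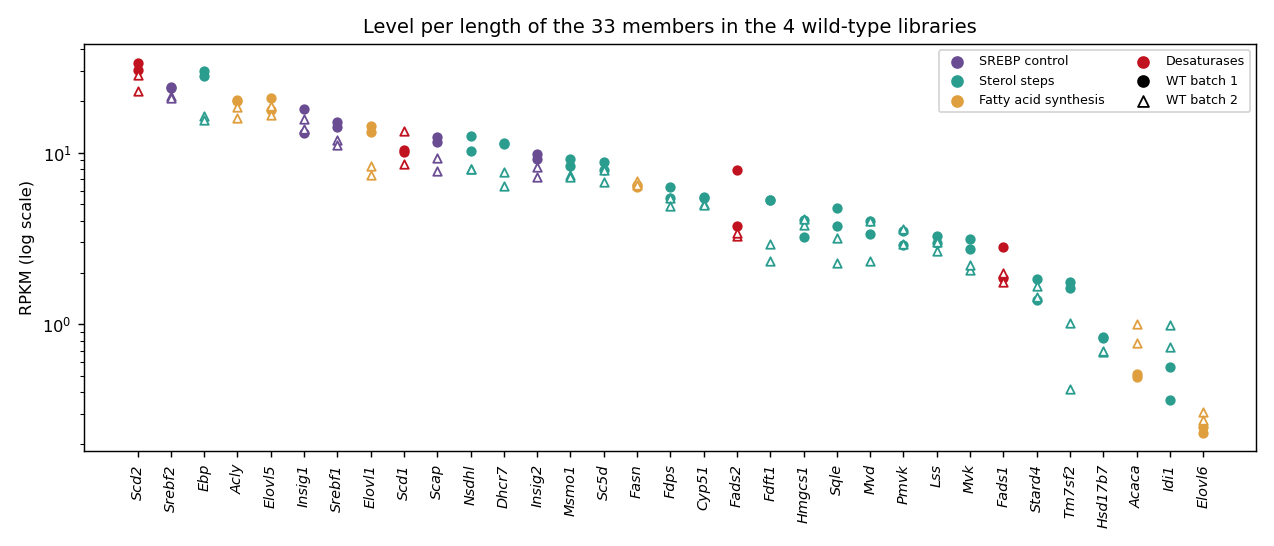
Levels per transcript length of the 33 genes in the 4 WT libraries (RPKM, log axis), one column per gene and one point per library (circles for batch 1, triangles for batch 2), with genes ordered by mean and coloured by role. Scd2 leads at a mean of 28.6 RPKM and Elovl6 comes last at 0.267 RPKM.

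Between the WT groups of the batches, 1 of the 33 members differed at an adjusted p below 0.05, where 2.81% of all genes did (1.96% higher and 0.843% lower; each adjusted p is from edgeR's quasi-likelihood F test, adjusted by Benjamini-Hochberg over all genes, unless another tool is named). At an unadjusted p below 0.05 there were 10 members, and 27.1% of all genes. Fdft1, squalene synthase, was measured at 15.1 and 15.2 CPM in WT of batch 1 and at 8.39 and 6.64 CPM in WT of batch 2. It was thus lower in WT of batch 2, by a log2 difference of -1.01 ± 0.18 (SE, adjusted p = 0.0400). Fdft1 was called in neither knockout, at 13.9 and 17.0 CPM in Blimp1KO (log2 fold change 0.02 ± 0.18, adjusted p = 0.986) and 7.36 and 7.97 CPM in Xbp1KO (0.03 ± 0.18, adjusted p = 0.951). Both knockouts overlapped the WT libraries of their own batch. Of the 33 members, 26 had a lower fitted level in WT of batch 2 than in WT of batch 1. The median log2 difference was -0.23 over the members and -0.02 over all genes. The main comparisons therefore read each knockout against WT of its own batch only. The alternative with WT pooled also uses WT of the other batch, so the difference between the WT groups enters its results.

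Promoter sequences are shown for 4 members because the tests below called Insig1, Cyp51 and Elovl6, and because Hmgcs1, the cytosolic HMG-CoA synthase and a classical SREBP target, was the only member with a window that held the SREBP element searched for. Each runs 5′ to 3′ on the strand of the gene, from 250 bases before to 50 after its start in RefSeq (GRCm38.p6), and capitals mark matches to TCACNCCAC (SREBP element) or to CCAAT, the box bound by NF-Y, on either strand. Insig1 lies on the plus strand at chr5:28071162-28071461, Cyp51 on the minus strand at chr5:4104648-4104947, Elovl6 on the plus strand at chr3:129532136-129532435 and Hmgcs1 on the plus strand at chr13:119690101-119690400.
Insig1: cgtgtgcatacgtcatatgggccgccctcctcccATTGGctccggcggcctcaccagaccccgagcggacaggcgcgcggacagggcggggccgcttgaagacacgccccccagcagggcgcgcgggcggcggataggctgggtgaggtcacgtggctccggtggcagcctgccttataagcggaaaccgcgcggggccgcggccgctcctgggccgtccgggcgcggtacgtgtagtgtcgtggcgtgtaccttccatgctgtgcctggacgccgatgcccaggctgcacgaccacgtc
Cyp51: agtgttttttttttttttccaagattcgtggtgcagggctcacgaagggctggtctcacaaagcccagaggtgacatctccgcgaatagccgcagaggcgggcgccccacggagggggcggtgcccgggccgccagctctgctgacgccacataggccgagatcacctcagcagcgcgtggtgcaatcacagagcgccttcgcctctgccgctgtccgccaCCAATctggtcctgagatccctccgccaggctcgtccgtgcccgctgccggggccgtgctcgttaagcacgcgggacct
Elovl6: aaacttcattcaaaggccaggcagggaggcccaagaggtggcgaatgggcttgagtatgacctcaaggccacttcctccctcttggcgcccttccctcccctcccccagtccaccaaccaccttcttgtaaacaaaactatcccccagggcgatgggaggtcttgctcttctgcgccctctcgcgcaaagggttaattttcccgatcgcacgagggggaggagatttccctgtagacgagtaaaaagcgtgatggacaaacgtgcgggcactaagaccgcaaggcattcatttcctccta
Hmgcs1: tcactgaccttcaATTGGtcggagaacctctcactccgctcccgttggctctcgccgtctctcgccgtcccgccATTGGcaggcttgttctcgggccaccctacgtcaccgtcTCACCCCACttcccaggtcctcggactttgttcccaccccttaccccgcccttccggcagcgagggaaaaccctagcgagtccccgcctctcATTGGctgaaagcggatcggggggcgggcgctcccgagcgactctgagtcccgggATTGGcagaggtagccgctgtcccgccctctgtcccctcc
The Hmgcs1 window held 1 SREBP element and 4 CCAAT boxes, those of Insig1 and Cyp51 held 1 CCAAT box each, and that of Elovl6 held neither. Of the 33 members, 26 had a window in the table, and the called genes Sqle and Scd1 were among those without one. Of the 26 with a window, 22 (84.6%) held CCAAT in at least 1 window, compared with 41.1% of all 27025 genes with a window. By window, 65.7% of the members' windows and 37.4% of all windows held the CCAAT box. Scap, Acaca, Elovl6 and Fads2 were the 4 members whose windows lacked it. The SREBP element was found in 1 of 26 members (3.85%) and in 1.44% of all genes. TGACGTG, a form of the element bound by XBP1 and ATF6, was found in no member and in 2.22% of genes. The longer ER stress response element (ERSE), which contains CCAAT, was likewise in no member and in 0.137% of genes. GTGAAAG, a core of the Blimp1 site, was found in the windows of 1 member (Insig2) and of 4.89% of genes. These matches describe letters in short windows and not binding.

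In Blimp1KO the change among the lipid genes that passed the test was that of the desaturase Scd1. It rose 4.36-fold, while no gene of SREBP control, the sterol steps or fatty acid synthesis passed the test. Of the 33 members, 1 passed at an adjusted p below 0.05, where 0.862% of all genes did (0.577% higher and 0.285% lower). At an unadjusted p below 0.05 the members numbered 6, and 13.9% of all genes met that limit. The median log2 fold change was -0.20 over the members and -0.01 over all genes. In 15 members both Blimp1KO libraries lay below both WT libraries, in 3 they lay above, and in 15 the groups overlapped. Over all genes the libraries separated downwards in 22.1% and upwards in 20.9%.

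In Xbp1KO, single enzymes and 1 regulator moved in opposite directions. The SREBP anchor Insig1 fell 3.87-fold and the lanosterol demethylase Cyp51 fell 1.71-fold, while the squalene epoxidase Sqle rose 2.98-fold and the elongase Elovl6 rose 3.76-fold. These 4 members were the ones called of 33, where 7.70% of all genes met that limit (2.63% higher and 5.06% lower). At an unadjusted p below 0.05 there were 16 members, and 23.6% of all genes. The median log2 fold change was -0.01 over the members and 0.08 over all genes. Both Xbp1KO libraries lay above both WT libraries in 12 members and below them in 14, with overlap in 7, and over all genes the libraries separated upwards in 31.8% and downwards in 25.8%.

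**Figure D2:**
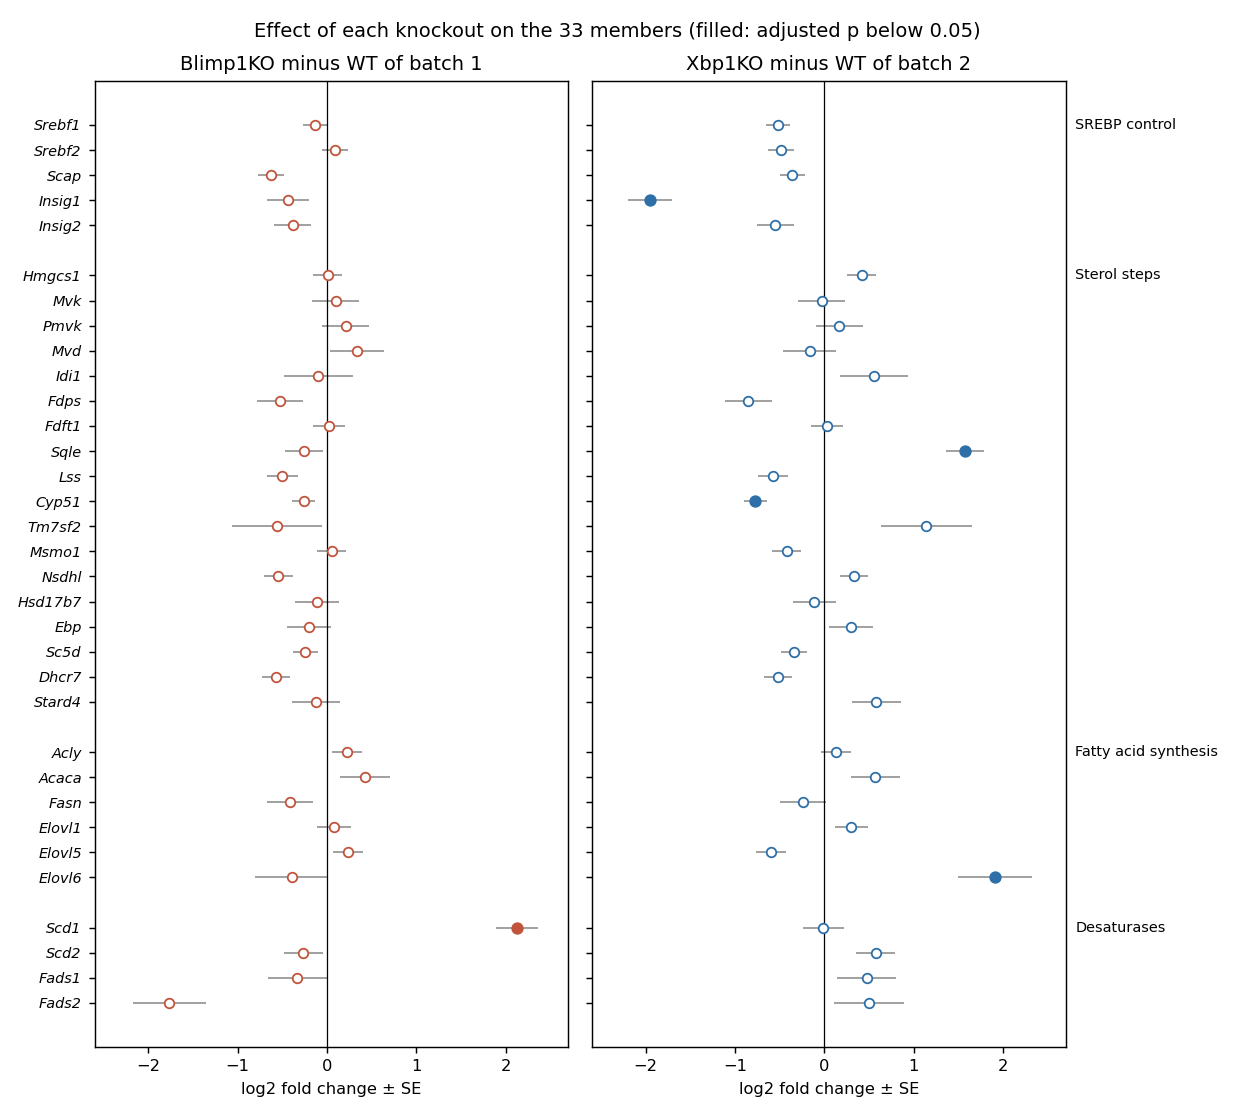
Log2 fold changes of the 33 genes in each knockout against WT of its own batch, grouped by role, with bars of 1 SE and filled points for an adjusted p below 0.05. Scd1 is the filled point in Blimp1KO, and Insig1, Cyp51, Sqle and Elovl6 are those in Xbp1KO.

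In the SREBP control group, all 5 genes lay below WT in both Xbp1KO libraries, where 25.8% of all genes did, and 1 of them, Insig1, was called. Insig1 (chr5:28071412-28078662, GRCm38.p6), the endoplasmic reticulum protein that retains the SREBP and Scap complex and is itself a classical SREBP target, was measured at 41.5 and 36.2 CPM in WT of batch 2 and at 8.23 and 11.9 CPM in Xbp1KO. The groups lay far apart, and the log2 fold change was -1.95 ± 0.24 (adjusted p = 0.00687). Without WT replicate 4 and Xbp1KO replicate 2 the log2 fold change was -2.34, and with 1 library left in each group the adjusted p was 0.0795. Leaving out WT replicate 3 alone gave -1.86 and an adjusted p of 0.0501. In batch 1, Insig1 stood at 34.2 and 47.4 CPM in WT and at 27.8 and 32.6 CPM in Blimp1KO. Both knockout libraries were the lower, but the log2 fold change of -0.43 ± 0.24 did not pass the test (adjusted p = 0.494). The difference between the 2 effects was -1.52 ± 0.34 (adjusted p = 0.0782), which missed the threshold. It passed by DESeq2 (adjusted p = 0.00218), by edgeR without the filter on low counts (0.00494) and without Blimp1KO replicate 1 (0.0455), and was -1.96 without WT replicate 4 and Xbp1KO replicate 2 (0.201).

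The genes of the SREBP factors themselves missed the threshold in edgeR's main fit for both knockouts, but other fits called them in Xbp1KO. Srebf1, which encodes the SREBP forms that favour fatty acid genes, was measured at 50.8 and 47.8 CPM in WT of batch 2 and at 34.3 and 34.6 CPM in Xbp1KO. Each Xbp1KO library was the lower, with a log2 fold change of -0.52 ± 0.13 that missed the threshold (adjusted p = 0.0666). It passed in 5 of 18 alternatives, namely DESeq2 (0.0102), batch 2 alone (0.0430), WT pooled (0.0475), limma on the deposited FPKM (0.0497) and without Blimp1KO replicate 2 (0.0239). The log2 fold change was -0.57 without WT replicate 4 and Xbp1KO replicate 2 (adjusted p = 0.457). In batch 1 the same gene stood at 64.7 and 60.7 CPM in WT and at 55.3 and 59.2 CPM in Blimp1KO, a log2 fold change of -0.13 ± 0.13 (adjusted p = 0.775). Srebf2, which favours sterol genes, was measured at 96.9 and 94.9 CPM in WT of batch 2 and at 66.7 and 70.1 CPM in Xbp1KO. Again the groups did not overlap and edgeR's test was missed (log2 fold change -0.49 ± 0.15, adjusted p = 0.0955), while it passed by DESeq2 (0.00833) and without Blimp1KO replicate 2 (0.0362). It was -0.55 without WT replicate 4 and Xbp1KO replicate 2 (adjusted p = 0.494). In batch 1, Srebf2 libraries stood at 109 and 109 CPM in WT and at 120.0 and 113 CPM in Blimp1KO, with a log2 fold change of 0.09 ± 0.15 (adjusted p = 0.882).

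Scap, the sterol-sensing escort of SREBP, was measured at 49.6 and 53.0 CPM in WT of batch 1 and at 32.2 and 34.2 CPM in Blimp1KO. Its log2 fold change of -0.63 ± 0.14 was the lowest of the group in that knockout and did not pass edgeR's test (adjusted p = 0.113) but passed by DESeq2 (0.0219). In batch 2 it stood at 40.0 and 33.5 CPM in WT and at 29.2 and 28.2 CPM in Xbp1KO, with a log2 fold change of -0.36 ± 0.14 (adjusted p = 0.191; -0.46 without WT replicate 4 and Xbp1KO replicate 2). Both knockouts were thus below their WT in every library for Scap. Insig2, the second SREBP anchor, was measured at 24.7 and 23.2 CPM in WT and at 17.6 and 19.1 CPM in Blimp1KO, with a log2 fold change of -0.38 ± 0.21 (adjusted p = 0.490). In batch 2 the Insig2 values were 20.8 and 18.2 CPM in WT and 16.0 and 10.6 CPM in Xbp1KO, a log2 fold change of -0.55 ± 0.21 (adjusted p = 0.166; -0.39 without WT replicate 4 and Xbp1KO replicate 2). Over the 5 SREBP control genes, the median log2 fold change was -0.38 in Blimp1KO and -0.52 in Xbp1KO.

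**Figure D3:**
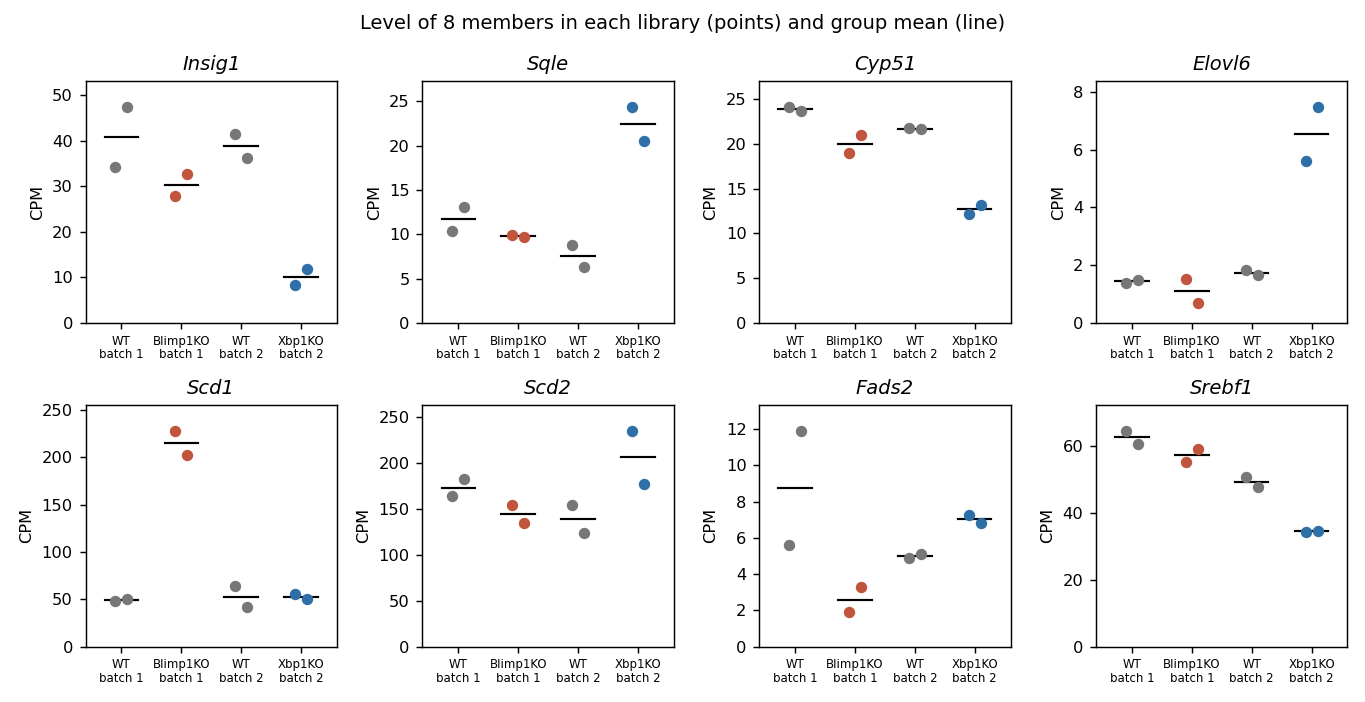
CPM of 8 genes in each of the 8 libraries, one panel per gene with the vertical axis starting at 0, WT and knockout of batch 1 to the left and of batch 2 to the right, and lines at the group means. Scd1 stands out in both Blimp1KO libraries at 228 and 202 CPM, and Insig1 is lowest in both Xbp1KO libraries at 8.23 and 11.9 CPM.

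Among the 18 genes of the sterol steps, 2 were called in Xbp1KO and they moved apart. Sqle (chr15:59315092-59331193), squalene epoxidase, which puts the first oxygen on squalene and is a rate-limiting step of the later pathway, was measured at 8.79 and 6.26 CPM in WT of batch 2 and at 24.4 and 20.5 CPM in Xbp1KO. The groups were well apart and the log2 fold change was 1.57 ± 0.22 (adjusted p = 0.00883). The call ended without WT replicate 4 (1.35, adjusted p = 0.0628), without Xbp1KO replicate 1 (1.36, adjusted p = 0.0638), and without WT replicate 4 and Xbp1KO replicate 2 together (1.46, adjusted p = 0.131). In batch 1, Sqle stood at 10.3 and 13.1 CPM in WT and at 9.87 and 9.73 CPM in Blimp1KO, with a log2 fold change of -0.26 ± 0.21 (adjusted p = 0.701). The WT libraries of batch 2 were also below those of batch 1 for Sqle, by a log2 difference of -0.64 ± 0.21 that did not pass the test (adjusted p = 0.128).

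Cyp51 (chr5:4080674-4104697), the P450 enzyme that demethylates lanosterol, was measured at 21.7 and 21.7 CPM in WT of batch 2 and at 12.2 and 13.2 CPM in Xbp1KO. Its spread within groups was small, and the log2 fold change was -0.77 ± 0.13 (adjusted p = 0.0180). The call ended when any WT library or any Xbp1KO library was left out, with adjusted p from 0.0588 without WT replicate 1 to 0.111 without WT replicate 3, while the log2 fold change kept between -0.80 and -0.78 in these fits. Without WT replicate 4 and Xbp1KO replicate 2 together it was -0.84 (adjusted p = 0.275). In batch 1, Cyp51 stood at 24.1 and 23.6 CPM in WT and at 18.9 and 21.0 CPM in Blimp1KO, a log2 fold change of -0.26 ± 0.13 (adjusted p = 0.449). The ratio of Sqle to Cyp51 per transcript length was 0.641 and 0.457 in WT of batch 2 and 3.16 and 2.46 in Xbp1KO. Sqle thus passed from the lower to the higher of the pair in both Xbp1KO libraries, whereas in batch 1 the ratio stayed at 0.678 and 0.878 in WT and at 0.826 and 0.735 in Blimp1KO.

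No other gene of the sterol steps passed edgeR's test in either knockout with all libraries in. In Xbp1KO, Fdps, farnesyl diphosphate synthase, had the lowest log2 fold change of the role at -0.85 ± 0.26 (adjusted p = 0.100), with 4.34 and 4.03 CPM in the knockout against 7.93 and 7.16 CPM in its WT. Fdps was called by DESeq2 (0.0388) and by edgeR without Blimp1KO replicate 1 (0.0367) or 2 (0.0275), and was -0.88 without WT replicate 4 and Xbp1KO replicate 2 (adjusted p = 0.449). In Blimp1KO, Dhcr7, the last reductase of the pathway's Kandutsch-Russell branch, was lowest at -0.57 ± 0.15 (adjusted p = 0.163), with 19.6 and 23.3 CPM in the knockout against 31.6 and 32.0 CPM in its WT. Both genes lay below WT in every library of both knockouts, and Dhcr7 in Xbp1KO (-0.52 ± 0.15, adjusted p = 0.0951) was called without Blimp1KO replicate 2 (0.0406) and was -0.60 without WT replicate 4 and Xbp1KO replicate 2 (0.434). Mvd, mevalonate diphosphate decarboxylase, had the highest value of the role in Blimp1KO at 0.33 ± 0.30 (adjusted p = 0.732), where 7.44 and 6.28 CPM in WT overlapped 7.20 and 10.1 CPM in the knockout. The median over the 18 genes was -0.16 in Blimp1KO, where 8 separated downwards (22.1% of all genes did), 0 upwards (20.9%) and 10 overlapped. In Xbp1KO 7 separated upwards (31.8% of all genes), 7 downwards (25.8%) and 4 overlapped.

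In fatty acid synthesis the 1 called gene was Elovl6 in Xbp1KO. Elovl6 (chr3:129532386-129638495), the elongase of saturated and monounsaturated chains of middle length, was measured at 1.83 and 1.64 CPM in WT of batch 2 and at 5.60 and 7.47 CPM in Xbp1KO. From a low level in WT it rose by a log2 fold change of 1.91 ± 0.41 (adjusted p = 0.0380). The call ended when any WT library or any Xbp1KO library was left out, with adjusted p from 0.0872 without WT replicate 2 to 0.196 without WT replicate 4, and also in the deposited FPKM, where limma gave 2.00 (adjusted p = 0.0668). Without WT replicate 4 and Xbp1KO replicate 2 together the log2 fold change was 1.61 (adjusted p = 0.359). In batch 1, Elovl6 stood at 1.38 and 1.49 CPM in WT and at 1.50 and 0.687 CPM in Blimp1KO, and the groups overlapped (log2 fold change -0.39 ± 0.41, adjusted p = 0.775).

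The other genes of the role did not pass edgeR's test in the main fit of 4 group means. Fasn, fatty acid synthase, was measured at 64.2 and 62.7 CPM in WT of batch 1 and at 61.0 and 34.4 CPM in Blimp1KO, so that 1 knockout library set the log2 fold change of -0.41 ± 0.26 (adjusted p = 0.570). In batch 2 it stood at 68.0 and 64.1 CPM in WT and at 58.8 and 53.2 CPM in Xbp1KO (log2 fold change -0.24 ± 0.26, adjusted p = 0.646). Acaca, which commits acetyl-CoA to fatty acids, was measured at 4.44 and 4.62 CPM in WT and at 7.70 and 4.45 CPM in Blimp1KO, with overlap and a log2 fold change of 0.42 ± 0.28 (adjusted p = 0.597). Elovl5 was the lowest of the role in Xbp1KO, with 33.6 and 30.8 CPM in the knockout against 51.6 and 46.1 CPM in its WT. The log2 fold change of -0.60 ± 0.17 missed the threshold (adjusted p = 0.0844). It passed in 5 of 18 alternatives, namely DESeq2 (0.0199), batch 2 alone (0.0376), WT pooled (0.0472), limma on the deposited FPKM (0.0409) and without Blimp1KO replicate 2 (0.0350), and was -0.63 without WT replicate 4 and Xbp1KO replicate 2 (0.478). The elongases Elovl6 and Elovl5 lay on opposite sides of WT in that knockout.

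Among the desaturases, Scd1 in Blimp1KO was the 1 call. Scd1 (chr19:44394450-44407709), stearoyl-CoA desaturase 1, which makes oleate and palmitoleate, was measured at 48.6 and 50.1 CPM in WT of batch 1 and at 228 and 202 CPM in Blimp1KO. The knockout libraries lay above all 6 other libraries of the series, and the log2 fold change was 2.13 ± 0.24 (adjusted p = 0.0272). The call ended when any WT library was left out, at an adjusted p of 0.266 without replicate 1, 0.190 without replicate 2, 0.0565 without replicate 3 and 0.0507 without replicate 4, and in batch 1 alone (0.0567). The log2 fold change ran from 2.11 to 2.17 in these fits. In batch 2, Scd1 stood at 64.5 and 41.3 CPM in WT and at 55.2 and 49.8 CPM in Xbp1KO, with a log2 fold change of -0.01 ± 0.23 (adjusted p = 0.984). Scd1 and Scd2 are close paralogs, and reads that match both could have been split between them in counting, so their separate levels are uncertain to that extent.

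Scd2 was not called in either knockout. It was measured at 164 and 183 CPM in WT of batch 1 and at 154 and 135 CPM in Blimp1KO, a log2 fold change of -0.26 ± 0.22 (adjusted p = 0.696). Per transcript length, the ratio of Scd1 to Scd2 was 0.334 and 0.309 in WT of batch 1 and 1.67 and 1.69 in Blimp1KO, while it was 0.472 and 0.376 in WT of batch 2 and 0.264 and 0.316 in Xbp1KO. Scd1 was thus the more abundant desaturase of the pair in the Blimp1KO libraries and the less abundant one in the 6 others. In batch 2, Scd2 stood at 154 and 124 CPM in WT and at 236 and 177 CPM in Xbp1KO, higher in both libraries without passing the test (log2 fold change 0.57 ± 0.22, adjusted p = 0.167). The value was 0.61 without WT replicate 4 and Xbp1KO replicate 2 (adjusted p = 0.492).

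The front-end desaturases of polyunsaturated fatty acids did not pass edgeR's test with the filter on low counts. Fads2, the delta-6 desaturase, was measured at 5.60 and 11.9 CPM in WT of batch 1 and at 1.88 and 3.27 CPM in Blimp1KO. Both knockout libraries were the lower, but WT libraries differed among themselves, and the log2 fold change of -1.76 ± 0.41 missed the threshold (adjusted p = 0.114). DESeq2 gave -1.74 with an adjusted p of 0.00168, and edgeR without the filter on low counts gave -1.76 with 0.00486. With a replicate block in batch 1, edgeR gave -1.72 with an adjusted p of 0.0416. In batch 2, Fads2 stood at 4.89 and 5.12 CPM in WT and at 7.28 and 6.84 CPM in Xbp1KO (log2 fold change 0.50 ± 0.39, adjusted p = 0.512). Fads1, the delta-5 desaturase, overlapped WT in both knockouts. It was measured at 6.44 and 9.70 CPM in WT and 5.78 and 7.05 CPM in Blimp1KO, and at 6.10 and 6.83 CPM in WT and 6.36 and 11.6 CPM in Xbp1KO.

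The effects of the knockouts on each member were then compared directly, each against its own WT. The difference between the effects passed the test in 2 of 33 members, where 1.68% of all genes passed (0.511% higher and 1.17% lower). At an unadjusted p below 0.05 there were 11 members, and 15.9% of all genes. For Sqle the effect in Xbp1KO exceeded that in Blimp1KO by 1.83 ± 0.30 on the log2 scale (adjusted p = 0.0395). For Scd1 it was lower by a log2 difference of -2.14 ± 0.33 (adjusted p = 0.0331). The Sqle call ended when any 1 library was left out (adjusted p from 0.0525 without Blimp1KO replicate 2 to 0.204 without WT replicate 2). The Scd1 call ended without WT replicate 1, 2 or 3 or either Xbp1KO library (adjusted p from 0.0826 without Xbp1KO replicate 1 to 0.180 without WT replicate 2). Without WT replicate 4 and Xbp1KO replicate 2 together the adjusted p was 0.197 for Sqle and 0.108 for Scd1.

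For Elovl6 the difference was 2.30 ± 0.58 (adjusted p = 0.108), and it passed by DESeq2 (0.00663), without the filter on low counts (0.0442) and without Blimp1KO replicate 1 (0.0337). For Fads2 it was 2.26 ± 0.57 (adjusted p = 0.108), and it passed by DESeq2 (0.00496), without the filter (0.00785) and with the replicate block (0.0404). DESeq2 also called the differences of Srebf2 (-0.61, adjusted p = 0.0455) and Elovl5 (-0.87, 0.0305). Without WT replicate 4 and Xbp1KO replicate 2 the difference was 1.95 for Elovl6 (0.420) and 2.28 for Fads2 (0.367). By sign of the fold change alone, 11 members were lower in both knockouts, 6 were higher in both, 10 were lower in Blimp1KO and higher in Xbp1KO, and 6 were the reverse. In 10 members every knockout library lay below WT of its batch in both comparisons, where 9.10% of all genes did so. These were Srebf1, Scap, Insig1 and Insig2 of SREBP control, Fdps, Lss, Cyp51, Sc5d and Dhcr7 of the sterol steps, and Fasn.

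**Figure D4:**
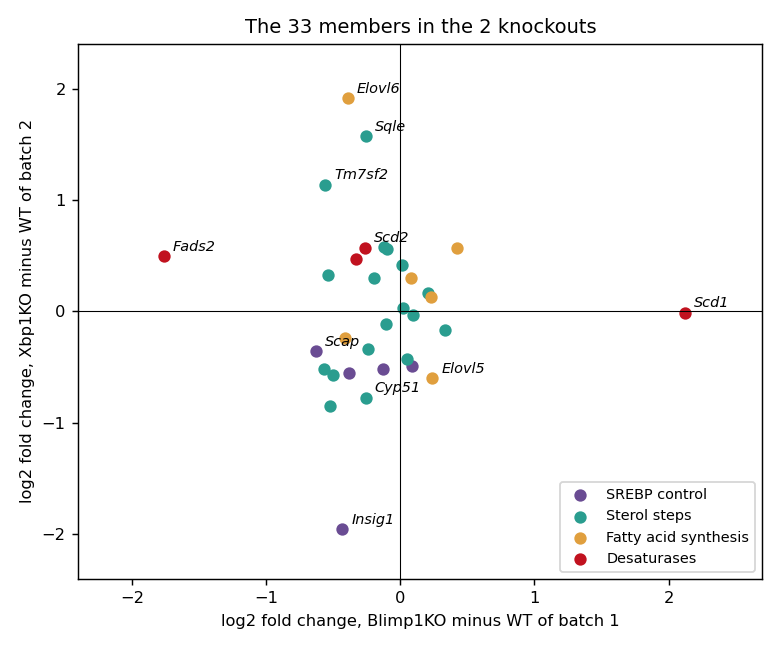
Log2 fold change in Xbp1KO (vertical) against that in Blimp1KO (horizontal) for the 33 genes, one point per gene coloured by role. Scd1 stands apart along the Blimp1KO axis, and Sqle, Elovl6 and Insig1 stand apart along the Xbp1KO axis.

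Neighbouring genes of the pathways outside the list were counted in the same fits, where 7.70% of all genes were called in Xbp1KO and 0.862% in Blimp1KO. Of 9 further sterol and isoprenoid genes, 2 were called in Xbp1KO and none in Blimp1KO. Pdss1, which makes the isoprenoid tail of coenzyme Q, rose from 0.453 and 0.577 CPM to 2.56 and 2.47 CPM (log2 fold change 2.29 ± 0.42, adjusted p = 0.0231; 2.49 and 0.193 without WT replicate 4 and Xbp1KO replicate 2). Dhdds, a subunit of the enzyme that makes the dolichol backbone needed for N-glycosylation, fell from 76.1 and 65.0 CPM to 28.3 and 26.3 CPM (log2 fold change -1.37 ± 0.19, adjusted p = 0.00938; -1.43 and 0.181 without those 2 libraries). Pdss1 and Dhdds, which both build chains from isoprenoid units of the mevalonate route, thus moved in opposite directions.

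Of 10 genes of SREBP processing and sterol-regulated degradation, 1 was called in Xbp1KO and none in Blimp1KO. Ube2g2, a ubiquitin-conjugating enzyme of the endoplasmic reticulum, fell from 30.9 and 32.0 CPM in WT of batch 2 to 18.2 and 17.4 CPM (log2 fold change -0.82 ± 0.12, adjusted p = 0.0120; -0.77 and 0.322 without WT replicate 4 and Xbp1KO replicate 2). Of 9 genes of the LXR and efflux arm, which responds to sterol excess, 1 was called in Xbp1KO and none in Blimp1KO. Mylip, a ubiquitin ligase that acts on lipoprotein receptors, fell from 33.2 and 27.8 CPM to 17.8 and 17.8 CPM (log2 fold change -0.78 ± 0.14, adjusted p = 0.0237; -0.91 and 0.259 without those 2 libraries). Its effects in the knockouts differed by -1.24 ± 0.20 (adjusted p = 0.0389; -1.42 and 0.211 without those 2 libraries), and in Blimp1KO it stood at 33.3 and 32.3 CPM against 24.9 and 22.5 CPM in WT of batch 1.

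Of 26 further fatty acid genes, 23 passed the filter on low counts. The difference between the 2 effects was called in 2 of the 23, both positive, where 1.68% of all genes were called. Of these, Fads3 is described below. In Xbp1KO 2 of the 23 were called, both higher. Hsd17b12, a reductase of the fatty acid elongation cycle, rose from 14.6 and 15.1 CPM to 32.5 and 30.6 CPM (log2 fold change 1.09 ± 0.14, adjusted p = 0.00785; 1.15 and 0.192 without WT replicate 4 and Xbp1KO replicate 2). Mid1ip1, which promotes the assembly of acetyl-CoA carboxylase, rose from 8.45 and 7.49 CPM to 15.1 and 16.9 CPM (log2 fold change 1.00 ± 0.19, adjusted p = 0.0250; 0.83 and 0.363 without those 2 libraries). In Blimp1KO 1 was called. Fads3, a relative of Fads1 and Fads2 in the same gene cluster, fell from 8.82 and 11.9 CPM in WT of batch 1 to 3.66 and 4.67 CPM (log2 fold change -1.32 ± 0.21, adjusted p = 0.0491). In Xbp1KO it stood at 13.8 and 12.5 CPM against 8.44 and 8.89 CPM, and its effects in the knockouts differed by 1.92 ± 0.30 (adjusted p = 0.0331; 1.97 and 0.202 without those 2 libraries).

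Levels of other marker lists differed between the same groups. Beside the rise of Scd1 in Blimp1KO, the summed level of 10 mature B cell markers was 503 to 531 CPM in WT of batch 1 compared with 1077 to 1483 CPM in Blimp1KO, with a median log2 fold change of 1.50 and 1 of 10 called (Spib). Summed plasma cell markers were 110910 to 119435 CPM in WT of batch 1 and 58943 to 72663 CPM in Blimp1KO. By sign 10 of 10 were lower, the knocked-out Prdm1 among them, with 0 called (3 at an unadjusted p below 0.05) and a median log2 fold change of -0.55. Summed proliferation genes were 170 to 206 CPM and 112 to 114 CPM, with 10 of 10 lower, 0 called (3 at an unadjusted p below 0.05) and a median of -0.77. Summed dendritic cell markers were 21.6 to 22.2 CPM and 42.2 to 45.7 CPM, with 0 of 7 called (3 at an unadjusted p below 0.05) and a median of 1.37. The part of these lists in the Scd1 result was not tested. For adipocytes, in which Scd1 is abundant, 9 markers summed to 1.41 and 3.15 CPM in WT of batch 1 and to 1.43 and 3.68 CPM in Blimp1KO. Of the 9, 5 and 7 were at 0 counts in the WT libraries and 7 in each Blimp1KO library. Only 2 of the 9 were tested, and both were higher by sign in Blimp1KO (0 called, median log2 fold change 1.36). The part of this list in the Scd1 result was likewise not tested. Summed macrophage markers ran from 256 to 863 CPM in WT of batch 1 and from 298 to 420 CPM in Blimp1KO, within the WT range. Beside the changes in Xbp1KO, the summed level of 10 proliferation genes was 268 to 365 CPM in WT of batch 2 compared with 647 to 775 CPM in Xbp1KO. All 10 were higher by sign and 5 were called (Top2a, Bub1, Mcm2, Mcm5 and Tyms), and the median log2 fold change was 1.24. Summed mature B cell markers were 418 to 475 CPM in WT of batch 2 and 727 to 763 CPM in Xbp1KO, with 1 of 10 called. By sign 9 were higher and 1 lower, with a median log2 fold change of 0.43. Their mean log2 of CPM plus 1 was 3.48 and 3.54 in WT, but 3.41 in Xbp1KO replicate 1 and 4.36 in Xbp1KO replicate 2. Dendritic cell markers summed to 12.6 to 13.0 CPM and 29.9 to 33.1 CPM (1 of 7 called, 6 higher and 1 lower by sign). Stroma and endothelium markers summed to 51.8 to 54.0 CPM and 99.4 to 100.5 CPM (1 of 7 called). By sign, however, 4 of these 7 were higher and 3 lower, with a median log2 fold change of 0.35. Their mean log2 of CPM plus 1 overlapped, at 1.82 and 1.95 in WT and 1.85 and 2.31 in Xbp1KO. Summed macrophage markers ran from 29.1 to 84.0 CPM in WT of batch 2 and from 30.6 to 237 CPM in Xbp1KO. By sign 7 of 8 were higher and 1 lower, with 0 called and a median log2 fold change of 1.61. Summed erythroid markers ran from 23.3 to 177 CPM and from 20.7 to 570 CPM, with 7 of 7 higher, 0 called and a median of 1.53. Of 10 plasma cell markers, Xbp1 itself among them, 3 were called lower in Xbp1KO (Mzb1, Fkbp11 and Derl3). By sign 5 were lower and 5 higher, with Sdc1 (0.74) and Prdm1 (0.63) above WT in both libraries without passing the test. The part of these lists in the Insig1, Cyp51, Sqle and Elovl6 results was not tested.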

How the data were processed

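RNA-seq of 8 libraries was analysed from the deposited table of raw read counts per Entrez gene, which holds whole numbers without normalization, per the file headers. Subread, featureCounts and limma, and the builds GRCm38 and mm10, are named without roles, per the submitters' processing notes; strand setting and read length are not given in the sources used here. Each deposited per-sample file gives log2 FPKM of 13945 genes, per the file headers, and served for symbols and as an alternative. In batch 1 these files follow the count columns of the other replicate number in WT (r = 0.997 and 0.987) and in Blimp1KO (0.994 and 0.995); groups are unaffected, and libraries are named here by the count table's headers. Gene lengths are the deposited ones, per the file headers, and RPKM was computed from counts, TMM-scaled library sizes and these lengths.

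Symbols came from the deposited files for 13860 genes and from RefSeq (GRCm38.p6) for 11720, and 1599 genes without a symbol held 0.0570% to 0.240% of counts. In R 4.3.3, edgeR 4.0.16 kept 15073 genes by filterByExpr (minimum count 10), including all 33 members, scaled libraries by TMM (factors 0.564 to 2.11) and fitted a quasi-likelihood model with 4 group means to all 8 libraries (4 residual and 3.06 prior degrees of freedom). The script was tested on simulated data. A gene was called at an adjusted p below 0.05 after Benjamini-Hochberg adjustment over all genes tested. The SE is the absolute log2 fold change divided by the square root of F. With 2 libraries a group, the p-values rest on the spread within the 4 groups. Alternatives were RLE scaling, no filter, no immunoglobulin genes, a replicate block, each batch alone, all WT pooled, limma-voom and limma on log2 FPKM (limma 3.58.1), DESeq2 1.42.0, and each library left out; leaving out WT replicate 4 and Xbp1KO replicate 2 together was added after seeing the data. The members and gene lists were chosen with earlier results of these data known. Genes are named by rule: the SREBP control genes, the desaturases, called members, the extremes of each role in each knockout, and up to 4 called genes of each further list. Fdft1 and the members listed as lower in both knockouts fall outside that rule and were chosen after their values were seen. 1 gene of the further sterol list is not reported here and is left out of that list's counts.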

Additional observations from a re-analysis of the deposited data

How the results depend on the processing

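Only 2 libraries a group limit precision. The 5 calls of members in a knockout kept their sign in all 18 alternatives. Some of these, such as leaving out a library of the other batch, remove no library of the comparison and test its sign little. Members called in Blimp1KO (1) numbered 2 without the filter and with the replicate block, 0 in batch 1 alone (4 at an unadjusted p below 0.05), 3 by DESeq2 and 0 to 1 with a library left out; all genes called (130) numbered 517, 20 in batch 1 alone, 269 with WT pooled, 83 by limma-voom, 862 by DESeq2, 31 without WT replicate 4 and Xbp1KO replicate 2, and 0 to 688 with a library left out. Both counts of 0 genes came from edgeR without WT replicate 1 or 2, where 1160 and 1064 genes had an unadjusted p below 0.05. Members called in Xbp1KO (4) numbered 8 by DESeq2, 0 without those 2 libraries (4 at an unadjusted p below 0.05) and 1 to 9 with a library left out; all genes (1160) numbered 2220, 59 and 225 to 2123. For the difference of effects, members (2) numbered 5 without the filter, 1 with the replicate block, 7 by DESeq2, 0 without those 2 libraries (5 at an unadjusted p below 0.05) and 0 to 3 with a library left out; all genes (253) numbered 763 without the filter, 1180 by DESeq2, 2 without those 2 libraries and 3 to 598. With WT pooled, the SREBP control median was -0.24 in Blimp1KO and -0.70 in Xbp1KO, and in Xbp1KO that of the sterol steps was -0.27, that of the desaturases 0.17 and that of fatty acid synthesis turned from 0.22 to -0.067; the cause was not tested. With a library left out, the SREBP control median in Blimp1KO ran from -0.44 to -0.18. With the replicate block, Fads2 was called in Blimp1KO (-1.72, adjusted p = 0.0416) and in the difference (2.21, 0.0404), where Sqle (0.0600) and Scd1 (0.0548) missed the threshold. The labels give libraries of batch 1 only a shared number. Across the genes tested, the difference between replicates 1 and 2 in WT correlated at 0.20 with that in Blimp1KO. No paired analysis was possible for Xbp1KO because it shares no replicate number with WT of batch 2.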
